A study of Mus musculus with 22 samples.

Results

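Processed pseudogenes are copies of messenger RNAs that were written back into the genome, so that they carry the joined exons of their parent gene, lack its introns and promoter, and usually lie on another chromosome. Most are not translated, and they keep most of the bases of the parent. *Rps15a*, *Tmem41b* and *Mrpl48* are 3 parents on mouse chromosome 7, the chromosome that also carries the Prader-Willi locus, and *Rps15a-ps4*, *Rps15a-ps6*, *Rps15a-ps7*, *Gm6223* and *Mrpl48-ps* are 5 processed copies of them on other chromosomes. Of the 55409 genes listed for PWS-cr and the 55406 listed for PWS-IC, the 8 were taken from both by name. They were selected on their counts in the PWS-IC series, where several copies differed between PWS-IC and wild-type pups, so that their values in that comparison are a description and carry no test. *Gm6223* was found by its Ensembl identifier, since the PWS-IC table lists the same gene as *Tmem41b-ps*.

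RNA came from the whole brain of newborn pups (postnatal day 0), mutants of either model and wild-type littermates alike. PWS-cr pups (labelled HET PWS-Cr) were heterozygous for a deletion of the critical interval with the *Snord116* small nucleolar RNAs and *Ipw*, inherited from the father and kept in the B6(Cg)-Snord116tm1Uta/J line. PWS-IC pups were heterozygous for a paternally inherited deletion of the imprinting centre, which silences the paternally expressed genes of the whole Prader-Willi interval. For the adult behavioural cohort the study describes a cross of C57BL/6-derived carrier males with outbred CD1 females, and it gives no separate cross for the sequenced pups. For PWS-cr, 4 litters gave 6 mutant and 5 wild-type libraries, and for PWS-IC, 2 litters gave 4 mutant and 5 wild-type libraries, each library from 1 pup and named by litter, pup and series (1_3_IC is pup 3 of litter 1 of the PWS-IC series). Total counts per library ran from 45798407 to 62103143. All 4 PWS-IC pups were labelled female and 4 of their 5 wild types male.

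The labels of 2 libraries went against their counts. The library labelled 1_3_IC (PWS-IC, female) held 18116 counts of *Snrpn*, the paternally expressed gene next to the deleted imprinting centre, 64 of the female-specific *Xist* and 3191 of the Y-linked *Eif2s3y*. The library labelled 1_7_IC (wild type, male) held 343 counts of *Snrpn*, 124574 of *Xist* and 9 of *Eif2s3y*. In the other PWS-IC libraries *Snrpn* had 255 to 425 counts and in the other wild types of that series 12281 to 16556. Counts of the PWS-IC series are therefore given for these 2 libraries apart from the other 7, and the log2 differences both for the 9 libraries as labelled and for the 7.

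The parents encode proteins of separate machineries. *Rps15a* encodes a protein of the small subunit of the cytoplasmic ribosome, *Tmem41b* a membrane protein of the endoplasmic reticulum that moves lipids and is needed to form autophagosomes, and *Mrpl48* a protein of the large subunit of the mitochondrial ribosome. In the mm10 annotation (GENCODE vM21) *Rps15a* lies at chr7:118104372-118116188, *Tmem41b* at chr7:109972187-109986929 and *Mrpl48* at chr7:100545751-100608301, all on the minus strand. Their starts are 58.0, 49.8 and 40.4 Mb beyond the end of *Snrpn* at chr7:59982495-60140219. *Rps15a-ps7* lies at chr2:152185291-152185682, *Rps15a-ps6* at chr11:6172644-6173036, *Rps15a-ps4* at chr4:132219988-132220489 and *Mrpl48-ps* at chr4:88599175-88599810, on the minus strand, and *Gm6223* at chr9:90118937-90119807 on the plus strand. Each copy is annotated as a processed pseudogene, and *Rps15a-ps4* as a transcribed one. *Rps15a-ps6* lies within *Nudcd3*, which runs on the same strand, and the span of *Mrpl48* overlaps that of *Rab6a* on the other strand. Unstranded counts cannot separate the reads of such genes where their exons overlap, and overlap of exons was not examined.

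The sequences show how little separates a copy from its parent. Bases 61 to 250 of the *Rps15a* coding sequence (transcript Rps15a-201, exons 2 to 4, counted from the A of the start codon as 1) and the same stretch of its 3 copies are given below, 5′ to 3′ on the strand of the gene, from the GENCODE vM21 transcripts of mm10. Capitals in *Rps15a* mark bases that at least 1 of the 3 copies does not share, and capitals in a copy mark bases that differ from *Rps15a*. The copies are at chr2:152185434-152185622, chr11:6172787-6172976 and chr4:132220188-132220377.
Rps15a: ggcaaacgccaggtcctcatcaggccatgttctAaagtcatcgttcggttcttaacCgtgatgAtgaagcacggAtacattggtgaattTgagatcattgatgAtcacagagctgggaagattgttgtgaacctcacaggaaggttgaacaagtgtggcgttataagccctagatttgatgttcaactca
Rps15a-ps7: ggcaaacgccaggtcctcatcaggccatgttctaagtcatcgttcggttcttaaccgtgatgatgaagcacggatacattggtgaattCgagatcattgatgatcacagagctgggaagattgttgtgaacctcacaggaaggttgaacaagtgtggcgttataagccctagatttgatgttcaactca
Rps15a-ps6: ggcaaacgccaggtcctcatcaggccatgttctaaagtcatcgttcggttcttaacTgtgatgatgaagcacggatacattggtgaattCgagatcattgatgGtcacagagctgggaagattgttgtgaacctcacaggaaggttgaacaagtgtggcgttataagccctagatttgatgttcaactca
Rps15a-ps4: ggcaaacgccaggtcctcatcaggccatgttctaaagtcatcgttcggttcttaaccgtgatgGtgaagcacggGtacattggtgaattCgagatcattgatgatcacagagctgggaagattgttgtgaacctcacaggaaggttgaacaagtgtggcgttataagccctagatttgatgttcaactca

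Over the coding sequence of 393 bases, *Rps15a-ps7* differed from *Rps15a* by 4 mismatches (C7G, G8A, T150C and C362G) and lacked 1 base (A94-), an identity of 98.7%. *Rps15a-ps6* differed by 5 mismatches (C7T, C117T, T150C, A164G and T301C), also an identity of 98.7%. *Rps15a-ps4* differed by 9 mismatches, an identity of 97.7% over 390 bases. The parent's reading frame runs for 130 codons, against 37 in *Rps15a-ps7*, 2 in *Rps15a-ps6* and 106 in *Rps15a-ps4* before the first stop codon. T150C was shared by 7 of the 8 annotated *Rps15a* copies, all but *Rps15a-ps8*, which differed from the parent at 30 bases. The longest stretch identical between copy and parent was 211 bases in *Rps15a-ps7*, 136 in *Rps15a-ps6* and 140 in *Rps15a-ps4*.

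For *Tmem41b* and *Mrpl48* the stretch of 150 coding bases that holds the most differences is shown in the same way, with chr9:90119606-90119755 for *Gm6223* and chr4:88599362-88599511 for *Mrpl48-ps*. The *Tmem41b* bases are 670 to 819 of its coding sequence (transcript Tmem41b-201, exons 6 and 7), and the *Mrpl48* bases 300 to 449 (transcript Mrpl48-208, exons 5 and 6).
Tmem41b: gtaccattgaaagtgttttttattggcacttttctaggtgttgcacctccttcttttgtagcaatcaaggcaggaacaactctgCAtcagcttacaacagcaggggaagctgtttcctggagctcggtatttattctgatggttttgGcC
Gm6223: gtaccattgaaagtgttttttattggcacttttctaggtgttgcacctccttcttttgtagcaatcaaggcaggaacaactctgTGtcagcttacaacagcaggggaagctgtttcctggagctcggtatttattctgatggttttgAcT
Mrpl48: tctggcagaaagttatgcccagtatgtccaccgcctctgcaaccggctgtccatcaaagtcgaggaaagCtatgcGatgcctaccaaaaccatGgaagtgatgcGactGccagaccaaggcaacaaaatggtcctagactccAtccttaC
Mrpl48-ps: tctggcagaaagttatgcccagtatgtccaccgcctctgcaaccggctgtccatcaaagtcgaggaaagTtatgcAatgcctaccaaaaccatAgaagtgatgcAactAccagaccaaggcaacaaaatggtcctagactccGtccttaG

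*Gm6223* differed from *Tmem41b* at 7 of 871 aligned bases (identity 99.2%), with a longest identical stretch of 321 bases. *Mrpl48-ps* differed from *Mrpl48* at 12 of 636 bases (identity 98.1%), with a longest identical stretch of 210 bases and an open reading frame of 211 codons, as long as that of its parent. The plot of differing positions places these differences along each coding sequence. Read length and the treatment of reads that fit several places equally well are not given beyond a random order of such alignments, so that a count at a copy cannot be told apart from parent reads placed there.

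**Figure D1:**
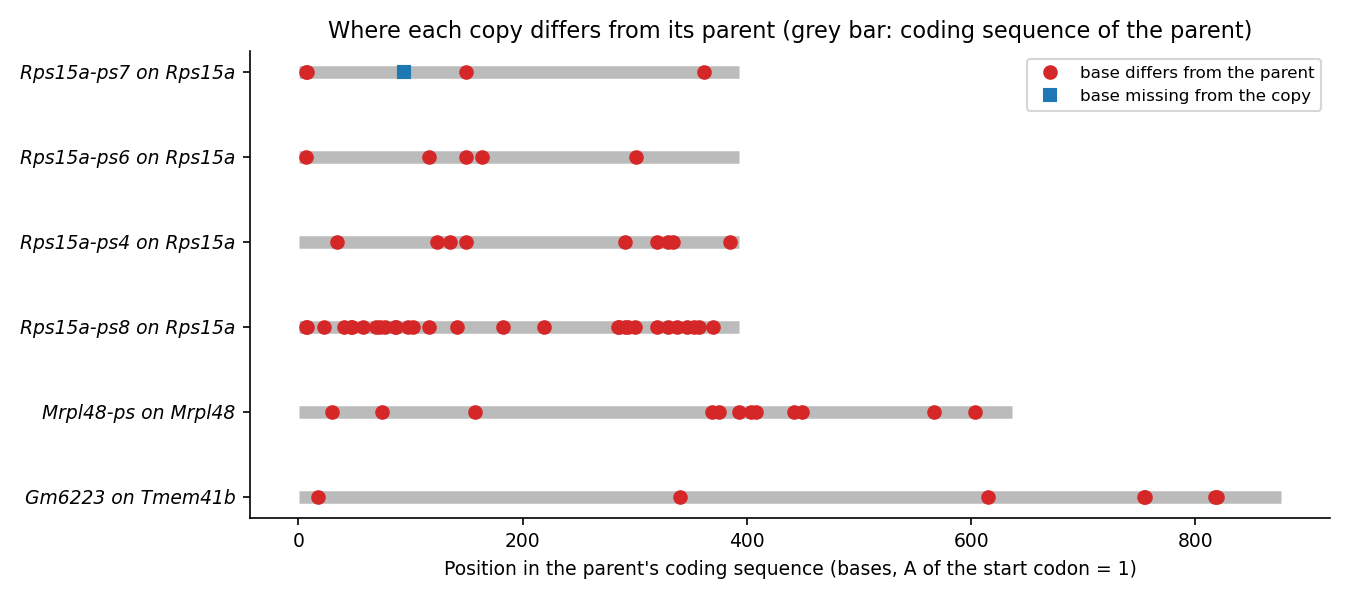
Position of every base at which a copy differs from its parent (x axis, bases of the parent's coding sequence from the start codon), with 1 row per copy and a grey bar for the parent's coding sequence. *Rps15a-ps7* has 4 mismatches and 1 missing base, and *Rps15a-ps8* has 30 mismatches.

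In the PWS-IC series the *Rps15a* copies split into a low and a high level. *Rps15a-ps7* had 274, 248 and 326 counts in the PWS-IC libraries 1_10_IC, 4_4_IC and 4_5_IC. It had 15, 11, 17 and 11 counts in the wild types 1_1_IC, 1_5_IC, 4_3_IC and 4_6_IC. The library labelled 1_3_IC held 13 counts and that labelled 1_7_IC held 269, so that each stood with the group opposite to its label. *Rps15a-ps6* repeated this order at a lower level, with 159, 119 and 169 counts in the same PWS-IC libraries and 16, 24, 24 and 15 in the wild types. Its counts were 17 in the library labelled 1_3_IC and 153 in that labelled 1_7_IC. *Rps15a-ps4* was the least separated, with 65, 67 and 60 counts in PWS-IC and 20, 33, 26 and 15 in wild types, 29 in the library labelled 1_3_IC and 85 in that labelled 1_7_IC. Without the 2 libraries, the groups did not overlap for any of the 3 copies, in either litter.

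In CPM (a gene's counts scaled to a common library size, by TMM over all 20 libraries), *Rps15a-ps7* was at 5.05 ± 0.285 (SD, n = 3) in PWS-IC and 0.242 ± 0.0374 (n = 4) in wild types, *Rps15a-ps6* at 2.66 ± 0.390 and 0.357 ± 0.0829, and *Rps15a-ps4* at 1.16 ± 0.178 and 0.425 ± 0.142. The log2 differences of the fit (edgeR, litter and genotype as terms) were 4.36 (SE 0.17), 2.92 (SE 0.21) and 1.49 (SE 0.25). With all 9 libraries as labelled they were 2.17 (SE 1.14), 1.57 (SE 0.77) and 0.83 (SE 0.44). These are bulk libraries of whole brain, in which fewer cells of a type and less RNA per cell cannot be told apart.

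*Rps15a* itself had 14112, 12362 and 16637 counts in the 3 PWS-IC libraries and 13404, 13663, 15360 and 13209 in the 4 wild types, and the groups overlapped. Its level was 257 ± 18.6 CPM (SD, n = 3) in PWS-IC and 252 ± 12.3 (n = 4) in wild types, a log2 difference of 0.03 (SE 0.07) in the 7 libraries and 0.21 (SE 0.12) in the 9. The library labelled 1_3_IC was at 369 CPM, above the other 8 libraries of the series, which ran from 216 to 270. The copies thus held a higher share of the family's counts in PWS-IC, while the parent's groups overlapped. *Rps15a-ps7* made up 1.90%, 1.97% and 1.92% of the counts of parent and copy in 1_10_IC, 4_4_IC and 4_5_IC. In the 4 wild types that share ran from 0.0804% to 0.112%.

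The other copies of *Rps15a* were read as well. *Rps15a-ps8*, the copy most unlike the parent, had 95, 67 and 119 counts in PWS-IC, 0, 0, 1 and 0 in wild types, 1 in the library labelled 1_3_IC and 92 in that labelled 1_7_IC. It shares differences from the parent with *Rps15a-ps7* (C7G and G8A) and *Rps15a-ps6* (C117T), but also with *Rps15a-ps3* (C69T). T291G and T330C are shared with *Rps15a-ps1* and *Rps15a-ps4* as well. The copy that shares the most with it is *Rps15a-ps2* (A87G, C219A, T291G, C320T and T330C). *Rps15a-ps3* had 24, 18 and 25 counts in PWS-IC and 4, 2, 18 and 11 in wild types, so that counts touched at 18. *Rps15a-ps5* had 15, 16 and 21 counts in PWS-IC and 9, 7, 9 and 4 in wild types. *Rps15a-ps2* had 3, 0 and 5 against 1, 2, 1 and 2, and *Rps15a-ps1* had 1, 0 and 1 against 0, 2, 1 and 0, so that both stayed near 0 in either group. Together the 8 copies held 4.31%, 4.15% and 4.18% of the family's counts in 1_10_IC, 4_4_IC and 4_5_IC, with 95% exact (Clopper-Pearson) intervals of 3.99% to 4.65%, 3.81% to 4.51% and 3.89% to 4.49%. In the 4 wild types the share was 0.437% to 0.628%. It was 0.527% (0.423% to 0.649%) in the library labelled 1_3_IC and 4.64% in that labelled 1_7_IC. These intervals cover counting error only.

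**Figure D2:**
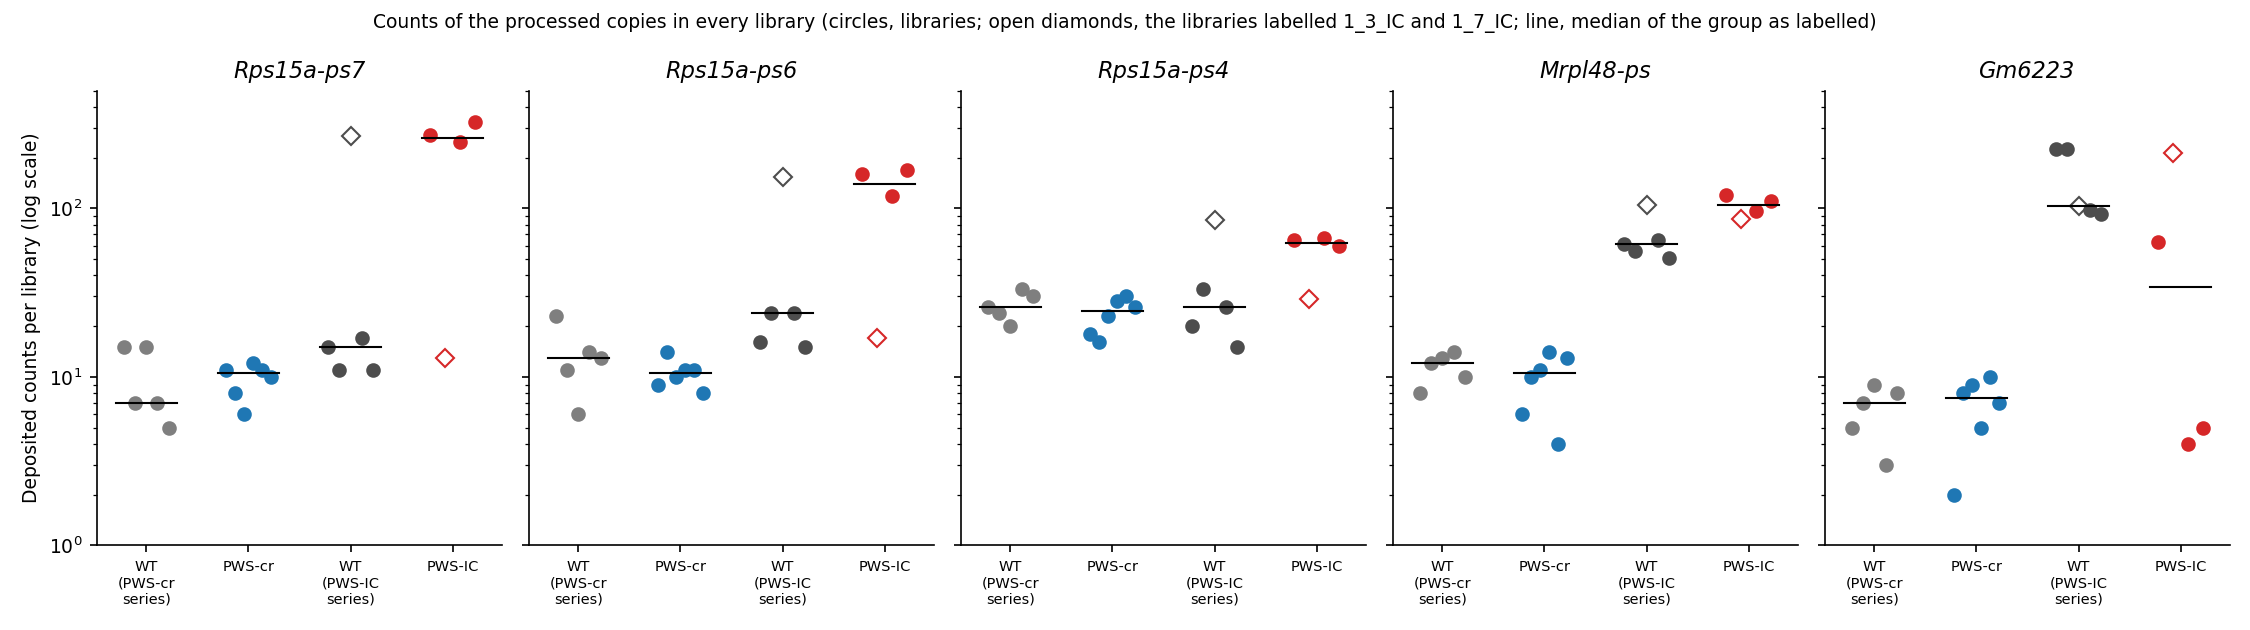
Deposited counts (log axis) of the 5 processed copies in each of the 20 libraries, by group. Open diamonds are the libraries labelled 1_3_IC and 1_7_IC and lines are group medians, and *Rps15a-ps7* lies at 248 to 326 counts in the 3 other PWS-IC libraries against 5 to 17 in all libraries of the PWS-cr series and the 4 other wild types.

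*Mrpl48-ps* had 120, 97 and 111 counts in the 3 PWS-IC libraries and 61, 56, 65 and 51 in the 4 wild types. The library labelled 1_3_IC held 86 counts, between the groups, and that labelled 1_7_IC held 104, within the PWS-IC range. In CPM these places changed, with 1.91 in the library labelled 1_3_IC, inside the range of 1.76 to 2.30 of the 3 PWS-IC libraries, and 1.71 in that labelled 1_7_IC, below it. Its share of the counts of parent and copy was 7.19%, 6.18% and 5.72% in PWS-IC, 3.76% to 4.24% in the wild types, 4.57% in the library labelled 1_3_IC and 6.35% in that labelled 1_7_IC. The log2 difference was 0.92 (SE 0.16) in the 7 libraries and 0.74 (SE 0.19) in the 9. The parent *Mrpl48* had 1548, 1472 and 1831 counts in PWS-IC and 1563, 1325, 1505 and 1153 in wild types. Its level was 28.9 ± 0.820 CPM (SD, n = 3) in PWS-IC and ran from 22.7 to 27.2 CPM in the 4 wild types, with a log2 difference of 0.23 (SE 0.07) in the 7 libraries and 0.34 (SE 0.10) in the 9.

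*Gm6223* went the other way and stood at several levels. In litter 1 it had 226 and 225 counts in the wild types 1_1_IC and 1_5_IC and 63 in the PWS-IC library 1_10_IC. In litter 4 it had 98 and 93 counts in the wild types 4_3_IC and 4_6_IC and 4 and 5 in the PWS-IC libraries 4_4_IC and 4_5_IC. The library labelled 1_3_IC held 213 counts, close to the wild types of its litter, and that labelled 1_7_IC held 103. The groups did not overlap within either litter, and the PWS-IC pup of litter 1 lay closer to the wild types of litter 4 than to the PWS-IC pups of that litter. The share of *Gm6223* in the counts of parent and copy was 14.5% and 14.7% in the wild types of litter 1 and 4.86% in 1_10_IC. In litter 4 it was 5.62% and 6.19% in the wild types and 0.235% and 0.236% in PWS-IC. The log2 difference was -2.73 (SE 0.40) in the 7 libraries and -1.41 (SE 0.72) in the 9.

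Its parent *Tmem41b* differed less. It was at 23.3 and 24.4 CPM in the wild types of litter 1 and 23.6 CPM in 1_10_IC. In litter 4 it was at 27.6 and 27.8 CPM in the wild types and 32.3 and 33.5 CPM in PWS-IC. Within litter 1 the groups overlapped, and the level was highest in the 2 libraries of the series in which *Gm6223* had 4 and 5 counts. Over the 7 libraries the groups overlapped, with a log2 difference of 0.15 (SE 0.08), and of 0.03 (SE 0.10) in the 9.

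**Figure D3:**
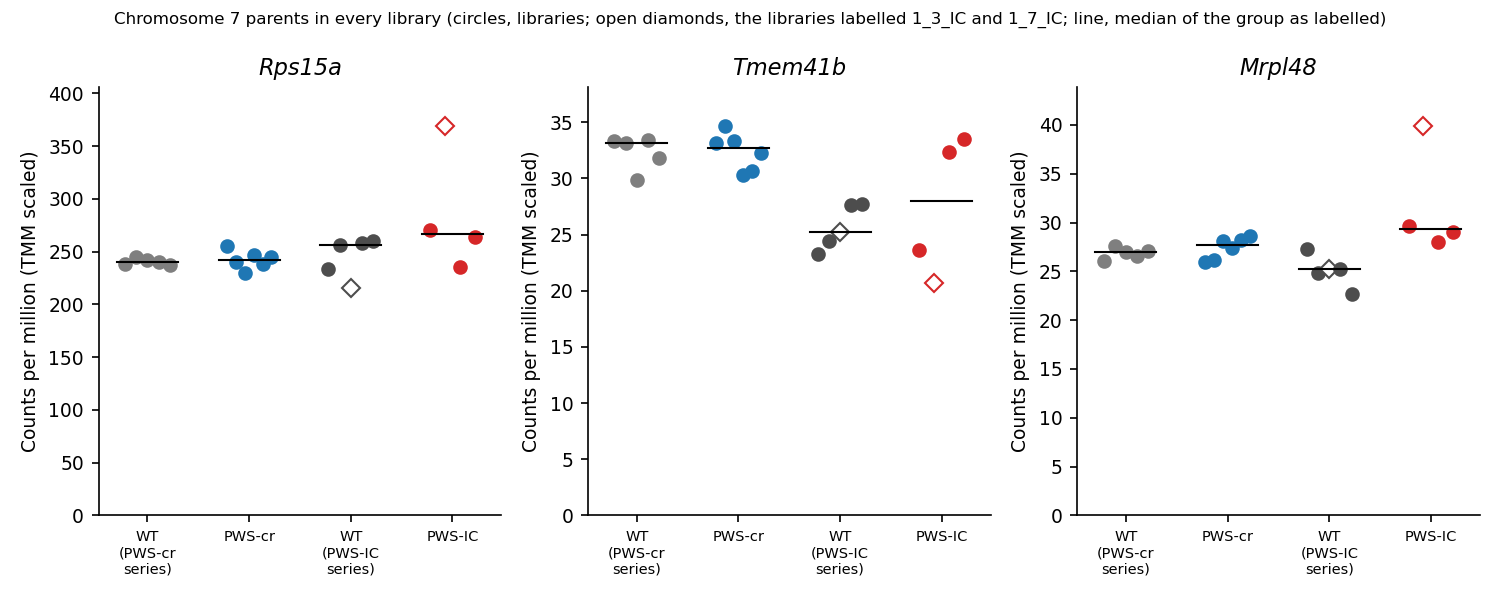
Level of the 3 parents in CPM (linear axis from 0, TMM scaled) in each of the 20 libraries, by group, with lines at group medians and open diamonds for the libraries labelled 1_3_IC and 1_7_IC. *Tmem41b* lies at 29.8 to 34.6 in the PWS-cr series, at 32.3 and 33.5 in 4_4_IC and 4_5_IC and at 20.7 to 27.8 in the other libraries of the PWS-IC series.

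Of the 8 members, 0 passed an adjusted p of 0.05 (edgeR, Benjamini-Hochberg) in the 9 libraries as labelled, where 0% of all genes passed. Before adjustment 2 of the 8 lay under 0.05, against 8.23% of all genes. DESeq2 called 0 of the 6 for which it gave an adjusted p, and gave none for *Rps15a-ps6* and *Rps15a-ps7*. In the 7 libraries 5 passed, the 5 copies, against 0.242% of all genes tested, 53 of 21913. *Rps15a-ps7* and *Rps15a-ps6* were called in all 9 alternatives to that fit, *Gm6223* in 7, *Rps15a-ps4* in 2 and *Mrpl48-ps* in 1, and leaving out 1 library at a time left 2 to 4 calls. These counts come from the comparison by which the genes were picked. In CPM, 5 members lay higher in every PWS-IC library than in every wild type of the 7 and 1, *Gm6223*, lower, against 5.11% and 5.13% of all genes, 10.2% in both directions. In the 9 libraries as labelled, 2 members (*Mrpl48* and *Mrpl48-ps*) lay higher and 0 lower, against 1.25% and 0.993% of all genes, 2.24% in both directions. Sex moves with genotype here, since the 3 PWS-IC libraries are female and 3 of the 4 wild types male. In 1_1_IC, the wild-type female, *Rps15a-ps7*, *Rps15a-ps6*, *Rps15a-ps4* and *Mrpl48-ps* had 15, 16, 20 and 61 counts, each within the range of the 3 wild-type males, and *Gm6223* had 226 against 225, 98 and 93 in the males. With sex added to the fit of the 7 libraries, 2 of the 5 calls were left, *Rps15a-ps7* and *Rps15a-ps6*.

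**Figure D4:**
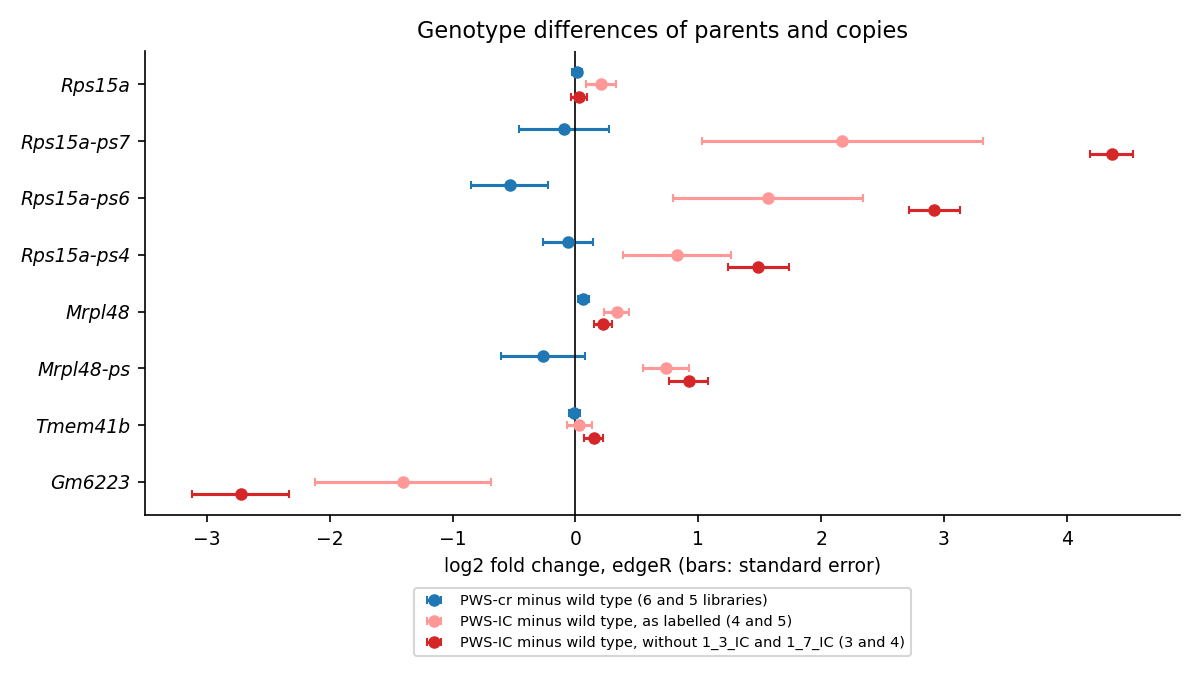
log2 fold change of mutant minus wild type with its standard error (edgeR) for the 8 genes in the PWS-cr series and in the PWS-IC series with and without the libraries labelled 1_3_IC and 1_7_IC. *Gm6223* has no PWS-cr point because it did not pass the filter there, and *Rps15a-ps7* goes from 2.17 to 4.36 when the 2 libraries are left out.

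The genes were selected on differences in the PWS-IC series, although results of the PWS-cr series were also known at that time. The comparison of PWS-cr with wild type asks whether loss of the critical interval alone goes with a change in the copies. *Rps15a-ps7* had 11, 8, 6, 12, 11 and 10 counts in the PWS-cr libraries and 15, 7, 15, 7 and 5 in the wild types, and the groups overlapped. *Rps15a-ps6* had 8 to 14 counts in PWS-cr (median 10.5) and 23, 11, 6, 14 and 13 in wild types. *Rps15a-ps4* had 16 to 30 counts in PWS-cr (median 24.5) and 26, 24, 20, 33 and 30 in wild types. Every library of this series was below the 3 PWS-IC libraries 1_10_IC, 4_4_IC and 4_5_IC for all 3 copies, with the smallest gap in *Rps15a-ps4*, at most 0.619 CPM here and at least 0.953 CPM there. The parent *Rps15a* had 11674 to 13283 counts in PWS-cr and 11528 to 13584 in wild types.

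*Mrpl48-ps* had 4 to 14 counts in PWS-cr (median 10.5) and 8, 12, 13, 14 and 10 in wild types. *Gm6223* had 2 to 10 counts in PWS-cr (median 7.5) and 5, 7, 9, 3 and 8 in wild types. *Gm6223* did not reach 10 counts in 4 libraries and was not tested, which leaves 7 of the 8 members. Without that filter its log2 difference was 0.37 (SE 0.44, edgeR adjusted p = 1). *Tmem41b* was at 32.4 ± 1.67 CPM (SD, n = 6) in PWS-cr and 32.3 ± 1.53 (n = 5) in wild types, and *Mrpl48* at 27.4 ± 1.12 and 26.8 ± 0.576.

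In edgeR's quasi-likelihood test 0 of the 7 tested members passed in this series, where 0.0135% of all genes passed, 0 lay under 0.05 before adjustment and DESeq2 called 0. The log2 differences were 0.01 (SE 0.04) for *Rps15a*, -0.09 (SE 0.37) for *Rps15a-ps7*, -0.54 (SE 0.31) for *Rps15a-ps6* and -0.06 (SE 0.20) for *Rps15a-ps4*. They were -0.01 (SE 0.05) for *Tmem41b*, 0.06 (SE 0.05) for *Mrpl48* and -0.26 (SE 0.34) for *Mrpl48-ps*. Each had an adjusted p of 0.999872 (edgeR, Benjamini-Hochberg). In CPM, 0 of the 8 members separated the groups, as 0.0722% of all genes did upward and 0.0857% downward, 0.158% in all.

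The share of each copy in the counts of parent and copy was compared over PWS-cr and wild-type libraries with an exact two-sided permutation test over the 462 arrangements of genotype. For *Rps15a-ps7* it was 0.0772% ± 0.0174 (SD, n = 6) in PWS-cr and 0.0755% ± 0.0352 (n = 5) in wild types (exact permutation p = 0.913). It was 0.0840% ± 0.0178 and 0.105% ± 0.0495 for *Rps15a-ps6* (exact permutation p = 0.403), and 0.186% ± 0.0370 and 0.209% ± 0.0477 for *Rps15a-ps4* (exact permutation p = 0.398). *Gm6223* took 0.401% ± 0.162 and 0.377% ± 0.157 (exact permutation p = 0.801). *Mrpl48-ps* took 0.675% ± 0.253 and 0.788% ± 0.144 (exact permutation p = 0.420). In all 5 pairs the difference stayed within the spread between pups, and adjusted over the 5 exact permutation tests (Benjamini-Hochberg) the lowest p was 0.7. These arrangements took no account of litter. With genotype permuted within litters (36 arrangements), the permutation p ran from 0.306 for *Rps15a-ps6* to 0.889 for *Rps15a-ps7*.

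Litter was tested in the same series for the members that passed the filter, which leaves out *Gm6223*, the copy that split by litter in the other series. Litter 2 had 1 library, that of the mutant 2_2_Cr, so that its term rests on 1 pup. The F test over the 4 litters (edgeR) called 0 of the 7 tested members, against 0.0226% of all genes, 0 lay under 0.05 before adjustment and DESeq2's likelihood ratio test called 0. Adjusted p-values (edgeR) ran from 0.807 for *Tmem41b* to 0.983 for *Rps15a*. *Gm6223*, with 2 to 10 counts over all 4 litters, showed no library at the levels of 63 to 226 counts seen in the PWS-IC series.

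The machineries of the parents were read in the PWS-cr series as well. Of 32 proteins of the small ribosomal subunit, 32 were tested and 0 rose or fell (edgeR), 0 lay under 0.05 before adjustment and DESeq2 called 0. Their median log2 difference was 0.02, against 0.00340 over all genes, and 30 of the 32 lay above 0. The largest were *Rps27a* at 0.06 (SE 0.04), a fusion of ubiquitin with a ribosomal protein, *Rps10* at 0.05 (SE 0.13) and *Rps6* at 0.04 (SE 0.04), the subunit protein phosphorylated on growth signals. Of 49 proteins of the large mitochondrial subunit, 48 were tested and 0 rose or fell, 2 lay under 0.05 before adjustment (2.07% of all genes did) and DESeq2 called 0. Their median was 0.02 and 32 of the 48 lay above 0, with *Mrpl43* at 0.13 (SE 0.05), *Mrpl42* at 0.12 (SE 0.05) and *Mrpl54* at 0.10 (SE 0.07). Of 18 relatives of *Tmem41b* and genes of autophagosome formation, 18 were tested and 0 rose or fell, 0 lay under 0.05 before adjustment and DESeq2 called 0. Their median was 0.02, and 11 of the 18 lay above 0. The largest were *Wipi1* at 0.09 (SE 0.07), which binds phosphoinositide on forming autophagosomes, *Rb1cc1* at -0.08 (SE 0.05), a subunit of the kinase complex that starts them, and *Atg9a* at 0.06 (SE 0.06), a lipid scramblase of their membranes.

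Levels of the copies also differed between the wild types of the 2 series, which were not littermates. The comparison has 4 wild types of the PWS-IC series and 5 of the PWS-cr series, and series, litter and cross cannot be told apart in it. *Gm6223* was at 2.91 ± 1.36 CPM (SD, n = 4) in the first and 0.121 ± 0.0465 (n = 5) in the second, a ratio of 24.1. *Mrpl48-ps* was at 1.05 ± 0.0366 and 0.214 ± 0.0407, a ratio of 4.93. *Tmem41b* was at 25.8 ± 2.28 and 32.3 ± 1.53. These 3 members did not overlap between the series, as was the case for 20.4% of all genes. The other 5 overlapped, with *Rps15a-ps7* at 0.242 ± 0.0374 and 0.182 ± 0.0845 and *Rps15a* at 252 ± 12.3 and 241 ± 2.81. The wild types thus shared the low level of the *Rps15a* copies across both series, but not that of *Gm6223* or *Mrpl48-ps*. The pup with the lowest *Mrpl48-ps* count in the PWS-IC series had 51, above the 4 to 14 of all PWS-cr series pups.

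Other processed copies were read to see where the 5 differ. Each of the 1088 annotated processed pseudogenes tested in the 7 libraries was assigned to the protein-coding gene with which it shared the most stretches of 25 bases, at a minimum of 50, and this recovered the parent of all 5 copies. The nearest parent lay on chromosome 7 for 61 of them, of which 5 were called, and these were the 5 members. The members were picked on counts of this series and have parents on chromosome 7, so that these 5 calls restate that choice. Of the other 56 with a parent on chromosome 7, 0 were called and 6 did not overlap between the groups (10.7%, against 10.2% of all genes). The filter asked for 10 counts in 4 libraries, and only 3 of the 7 are PWS-IC. A copy with counts in PWS-IC alone was therefore not tested. This left out *Rps15a-ps8*, with 67 to 119 counts in the PWS-IC libraries and 0 to 1 in the wild types. Of 748 with a parent on another chromosome, 0 were called and 59 did not overlap (7.89%). The 279 without a parent found held 1 call, *Gm3257*, named after its values were seen, with a log2 difference of -5.34. Of all 53 calls, 35 were genes on chromosome 7, which held 7.86% of the genes tested and also carries the Prader-Willi locus itself. In the stretch from *Mrpl48* to *Rps15a*, which holds the 3 parents, 1 gene was called, *Hbb-bt*, a beta chain of haemoglobin.

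By name alone, 736 copies had their parent in the same table, 86 of them with a parent on chromosome 7, of which 23 were tested. Among the named copies that passed the filter, the 4 further ones with the largest differences in the 7 libraries were *Actr3-ps*, *Capza1-ps1*, *Ldhb-ps* and *Rps15a-ps3*. None of them was called, and *Rps15a-ps8* was not ranked because it did not pass the filter. *Actr3-ps* (on the X chromosome, parent on chromosome 1) had 650, 738, 645 and 762 counts in 1_5_IC, 4_3_IC, 4_6_IC and 1_3_IC, the 4 libraries of the series with high counts of *Eif2s3y*, and 38 to 49 in the other 5. *Capza1-ps1* (parent on chromosome 3) had 464 and 555 counts in 4_4_IC and 4_5_IC, the PWS-IC pups of litter 4, and 19 to 32 in the other 7. *Ldhb-ps* (parent on chromosome 6) had 644 and 432 counts in 1_1_IC and 1_3_IC, 303, 332, 290 and 231 in 1_7_IC, 1_10_IC, 4_3_IC and 4_6_IC, and 13, 17 and 12 in 1_5_IC, 4_4_IC and 4_5_IC. In the 11 libraries of the PWS-cr series these 3 copies had 20 to 43, 19 to 37 and 7 to 20 counts. Differences of this size were thus also found in these 3 copies of parents outside chromosome 7, which were picked by their difference in the 7 libraries. None of the 3 separated the genotypes in the same direction in both litters. In litter 1, *Capza1-ps1* had 24 counts in the PWS-IC library 1_10_IC and 28 and 32 in the wild types 1_1_IC and 1_5_IC, the reverse of litter 4. Of 136 named copies tested with a parent on another chromosome, 0 were called and 9 did not overlap between the groups (6.62%). The cause of these differences was not tested.

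**Figure D5:**
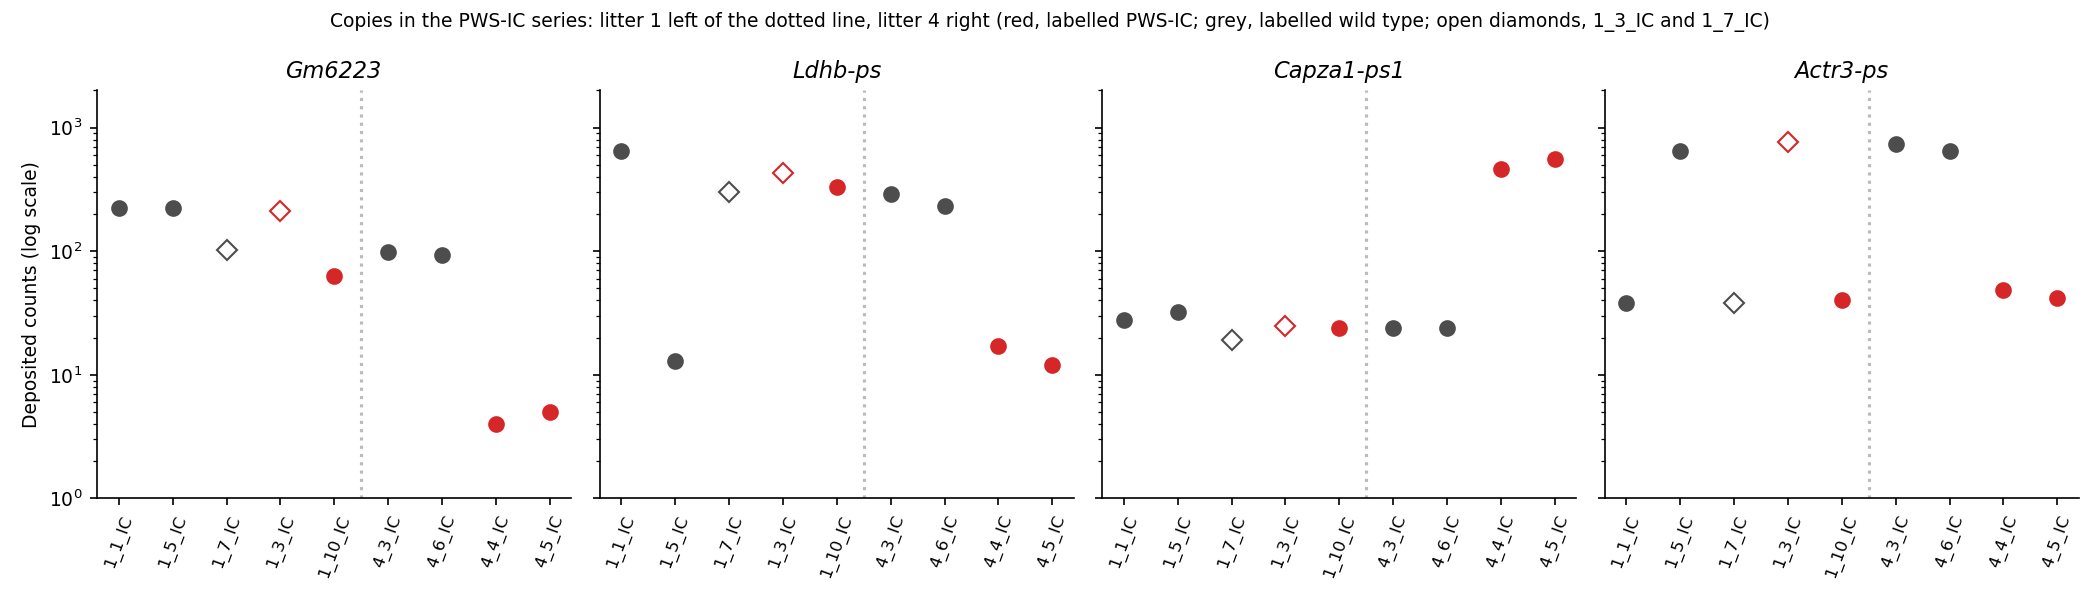
Deposited counts (log axis) of *Gm6223* and of the 3 named copies with parents on other chromosomes in the 9 libraries of the PWS-IC series, by litter, with open diamonds for the libraries labelled 1_3_IC and 1_7_IC. *Gm6223* lies at 225 and 226 counts in the wild types of litter 1, 93 and 98 in those of litter 4 and 4 and 5 in the PWS-IC pups of litter 4, and *Ldhb-ps* lies at 12 to 17, 231 to 332 and 432 to 644 counts.

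The genes whose pattern was most like each copy were found by the root mean square difference of mean-centred log2 CPM (prior count 2) over the 9 libraries of the PWS-IC series. The points of this measure share the same libraries, including the 2 whose labels went against their counts. *Rps15a-ps7* was nearest to *Rps15a-ps8* (0.582, against a spread of *Rps15a-ps7* itself of 2.04), followed by *Gm14131* (0.787) and *Gm14513* (0.867). *Rps15a-ps6* was nearest to *Gm14131* (0.229, own spread 1.38), *Gm44907* (0.627) and *1700016B15Rik* (0.705). *Rps15a-ps4* was nearest to *Hbb-bt* (0.271, own spread 0.751) and *Hba-a1* (0.281), a beta and an alpha chain of adult haemoglobin, and to *Gm26862* (0.303). *Gm6223* had no close gene, with *Gm44831* at 1.23, *BC051019* at 1.26 and *B230311B06Rik* at 1.28 against its own spread of 1.95. *Mrpl48-ps* was nearest to *Gm13689* (0.192, own spread 0.426), *Cyp1a1* (0.195) and *Gprc5a* (0.197). Of these 14 different genes 7 lie on chromosome 7, including the 3 nearest to *Gm6223*, and 7.83% of the genes searched do. Over the 9 libraries *1700016B15Rik* had 3 to 19 counts, *Gm26862* 4 to 21, *B230311B06Rik* 4 to 32 and *BC051019* 6 to 52, all low. The other chromosome 7 genes had 12 to 260 (*Gm44831*), 19 to 204 (*Gm44907*) and 811 to 4100 counts (*Hbb-bt*). The match used the series on which the copies were picked, so that these figures are a description and carry no test. The paper places *Gm44831* within *Ipw*, in the critical interval.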

How the data were processed

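Whole-brain RNA of pups at postnatal day 0 was sequenced as paired, unstranded reads. The authors aligned reads to mm10 with STAR, multimapping alignments in random order, counted them per gene with featureCounts and removed 1 outlier library per series by clustering, so that 20 of 22 labelled libraries have a column. Versions, read length and the counting of multimapped reads are not given in the sources used here. The deposited counts were used. The authors' own DESeq2 comparison columns (means, fold changes, errors, statistics and p-values), their counts divided by size factors, and FPKM and TPM (40 columns) were left aside. The 8 members and the gene lists were chosen with earlier results of these data known.

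Each series was fitted alone with edgeR 4.0.16 (R 4.3.3, TMM, quasi-likelihood, litter and genotype, genes kept from 10 counts in 4 or more libraries, Benjamini-Hochberg adjusted p under 0.05 over all genes), after tests on simulated data. The standard error is the size of the log2 difference over the square root of F. DESeq2 1.42.0, other filters, sex as a term and leaving out each library were alternatives. Those of the 7-library fit were chosen after seeing the data. Pups are separate animals. Shares were compared with exact permutation tests (scipy 1.17.1). Total counts of 45798407 to 62103143 per library make a count of 10 a small share of each library. Transcripts and positions came from GENCODE vM21 (mm10), aligned with Biopython 1.88 (local, match 2, mismatch -3, gap opening -5, extension -2).

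Named were the 8 members, up to 4 further copies named after a parent in the same table, taken by the largest log2 difference in the 7 libraries among copies that passed the filter, the 3 genes nearest in pattern to each copy, up to 3 genes of each list by the largest difference in PWS-cr, and *Snrpn*, *Xist* and *Eif2s3y*.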

Additional observations from a re-analysis of the deposited data

Results flagged for a closer look

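Dixon's criterion at 95% flagged single libraries far from the rest of their labelled group in 11 of 52 groups examined. By chance about 1 of 20 independent groups would be flagged. These groups are not independent, since CPM and shares come from the same counts and the *Rps15a* copies share a parent. The genes were also picked on counts of the PWS-IC series, so that the 11 flags are a description. All 11 were the library labelled 1_7_IC among the wild types or that labelled 1_3_IC among the PWS-IC libraries. In the library labelled 1_7_IC, *Rps15a-ps7* was at 4.42 CPM against 0.206 to 0.286 in the other wild types, *Rps15a-ps6* at 2.52 against 0.279 to 0.450 and *Mrpl48-ps* at 1.71 against 1.00 to 1.09. Shares of parent and copy in the same library were 2.01% for *Rps15a-ps7* against 0.0804% to 0.112%, 1.15% for *Rps15a-ps6* against 0.113% to 0.175%, 0.644% for *Rps15a-ps4* against 0.113% to 0.241% and 6.35% for *Mrpl48-ps* against 3.76% to 4.24%. In the library labelled 1_3_IC, *Rps15a-ps7* was at 0.289 CPM against 4.72 to 5.25 in the other PWS-IC libraries and the parent *Mrpl48* at 39.9 CPM against 28.0 to 29.6. Shares there were 0.0782% for *Rps15a-ps7* against 1.90% to 1.97% and 0.102% for *Rps15a-ps6* against 0.953% to 1.11%.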

How the results depend on the processing

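In the 9 PWS-IC series libraries as labelled, 0 of the 8 genes were called (edgeR), 3 without the filter on low counts (*Rps15a-ps7*, *Rps15a-ps6* and *Gm6223*) and 5 without the libraries labelled 1_3_IC and 1_7_IC. DESeq2 gave no adjusted p there for *Rps15a-ps6* and *Rps15a-ps7*. In the 7 libraries 5 were called, 2 with sex added to litter and 5 with DESeq2. Leaving out 1 library at a time left 2 to 4 calls, with 3 without 1_1_IC, 4_6_IC, 1_10_IC, 4_4_IC or 4_5_IC and 2 without 4_3_IC, and the cause was not tested beyond the smaller number of libraries. Leave-one-out counts stayed at 0 for PWS-cr genotype, PWS-cr litter, copy shares in PWS-cr and PWS-IC as labelled. Over all genes, PWS-cr calls were 3, against 7 with DESeq2, 10 without the filter and 2 with a filter in every library, PWS-IC calls in 9 libraries were 0, against 471 without the filter, 53 without the pair and 1 with DESeq2, and litter calls were 5, against 79 with DESeq2. None of the alternatives run turned a called direction. No paired analysis was possible because replicate numbers tie no mutant to a wild type. Litter is a term of the fits, and copy shares in PWS-cr were also permuted within litters. Counts of 2 to 33 per library limit the precision for the copies in the PWS-cr series.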
